A study of Drosophila melanogaster with 8 samples.

Results

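The genes described are *exu*, *mael* and *zuc* of *Drosophila melanogaster*, which act in the female germline. They were chosen by symbol: every clone on the array that the platform annotation, or the current name of the same Entrez identifier, assigns to one of them. This gave 4 of 8448 clones, and 3 of the 2377 genes that have a clone with a single symbol. *exu* (CG8994) had 2 clones, called clone 1 and clone 2 here in the order of their spot numbers. *mael* (CG11254) and *zuc* (CG12314) had 1 clone each. No clone with several symbols named any of the 3 genes.

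All 8 RNA samples came from one kind of fly, so the series holds no treated and untreated groups. Each pool held about 240 adult females of the Oregon-R strain, 4 to 10 days old, kept at a 16 h light and 8 h dark cycle and 60% relative humidity. Every pool had been sprayed in a Potter's tower, a bench sprayer, with 99% ethanol (2 mL), and RNA was taken 6 h later. Pools 1 and 2, 3 and 4, 5 and 6, and 7 and 8 were hybridized against each other as pairs 1 to 4 on a 2-colour array. Each pair was run on a normal-label array and again on a reversed-label array with Cy3 and Cy5 exchanged, which makes 4 arrays in each label group. The comparison asks how far ratios stray when both samples were treated alike. The pools were whole females, and the deposited values are ratios with no signal level, so neither the amount of ovary RNA in a pool nor the abundance of a transcript could be checked.

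The 3 genes stand at different steps of making an egg. In the ovary, nurse cells supply the oocyte with messenger RNAs, some of which are carried to one end of the cell and later pattern the embryo. *exu* (exuperantia) is required to localize the *bicoid* messenger RNA to the anterior of the oocyte. Ovarian cells also hold transposons in check with piRNAs, small RNAs bound by Piwi-family proteins. *zuc* (zucchini) encodes a mitochondrial nuclease of the phospholipase D family that cuts long precursors into piRNAs. *mael* (maelstrom) encodes an HMG-box protein needed for piRNA-guided transcriptional silencing. *exu* is therefore the RNA localization gene of the 3, and *zuc* and *mael* belong to piRNA production and piRNA effect.

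Ratios below are the deposited log ratios, taken as base 2, minus the array median, averaged over the 2 spots of a clone. Their numerator is not given in the sources used here. It was taken as the pool of the same parity on every array, from correlations between the label groups of which 9 of 12 were below 0 (median -0.157), so that orientation is likely and not settled, and the parity is unknown. The arrays differed in spread, with 0.604% to 7.63% of all clones past 2-fold, the highest share on the normal-label array of pair 3. In pair 3 the reversed-label array was unlike the rest. Its correlation across clones with the 3 remaining reversed-label arrays was -0.14 to 0.03, while those 3 had correlations of 0.12 to 0.36 among themselves. The pair 3 values of the 3 genes, and the dye component of *mael* (defined below), are given with and without it. The dye components of *zuc* and the first *exu* clone and the F-tests of the 3 genes are given only with it. The same holds for all values of the gene lists and tissue markers, so their dependence on that array is not shown.

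The first *exu* clone stood at 0.29, 0.32, -0.48 and 0.45 on the normal-label arrays of pairs 1 to 4. On the reversed-label arrays it stood at 0.07, -0.06, -0.67 and -0.05. Both arrays of pair 3 were the lowest of their label group, and the groups overlapped. The second *exu* clone stood at 0.14, 0.32, 0.65 and 0.10 on the normal-label arrays. On the reversed-label arrays it stood at 0.14, -0.13, 0.32 and 0.48. It was above 0 on 7 of 8 arrays, and the label groups overlapped here too.

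*zuc* stood at 0.03, -0.33, -0.89 and -0.01 on the normal-label arrays and at 0.21, 0.07, -0.20 and 0.33 on the reversed-label arrays. The arrays of pair 3 were again the lowest in each label group, and the groups overlapped. *mael* stood at -0.57, -0.17, -0.73 and -0.03 on the normal-label arrays. On the reversed-label arrays it stood at 0.28, 0.76, 0.01 and 0.71. All 4 normal-label values of *mael* were below 0 and all 4 reversed-label values above 0, so that its label groups did not overlap. Among all clones, 12.8% had label groups that did not overlap.

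None of the 4 clones passed 2-fold on any array, where 12.8% of all clones did on at least 1 (1083 clones, by coincidence the same number as those whose label groups did not overlap). The ratio farthest from 0 was that of *zuc* on the normal-label array of pair 3, a 1.85-fold ratio on that array, dye included. With the dye averaged out, the difference between pools 5 and 6 was 1.46-fold. For *mael* the farthest ratio was 1.69-fold, for the first *exu* clone 1.60-fold and for the second 1.56-fold. The SD over 8 arrays was 0.54 for *mael*, 0.39 for the first *exu* clone, 0.38 for *zuc* and 0.24 for the second *exu* clone. The median clone had 0.30, and 90.7% of clones varied less than *mael*.

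**Figure D1:**
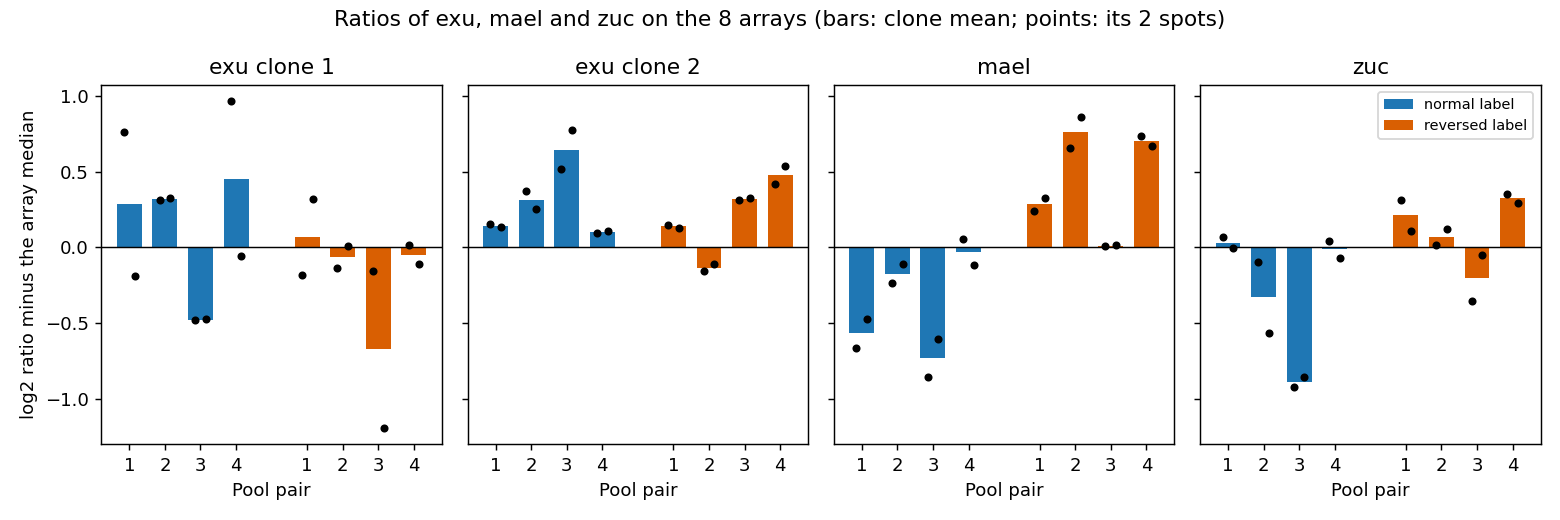
Log2 ratio minus the array median (vertical axis) of the 4 clones on the 8 arrays, by pool pair (horizontal axis); bars are clone means, black points the 2 spots, blue the normal-label and orange the reversed-label arrays. *mael* is below 0 on the 4 blue bars and above 0 on the 4 orange ones, and the spots of the first *exu* clone lie up to 1.04 apart.

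The 2 spots of a clone give a measure of the error within an array. The spots of the second *exu* clone lay a median of 0.034 apart over the 8 arrays, and 0.4% of clones had a smaller gap. Those of *zuc* lay 0.11 apart and those of *mael* 0.15, against 0.20 for the median clone. The spots of the first *exu* clone lay 0.32 apart, and 76.5% of clones had a smaller gap. On the reversed-label array of pair 3 they stood at -0.15 and -1.19, the latter being the only spot of the 4 clones past 2-fold. On the normal-label arrays of pairs 1 and 4 they had opposite signs, at 0.76 and -0.19 and at 0.97 and -0.06. On the reversed-label array of pair 1 they stood at -0.18 and 0.32, and on those of pairs 2 and 4 they also differed in sign, with gaps of 0.15 and 0.13. Its spots agreed on the normal-label arrays of pair 2 (0.31 and 0.33) and pair 3 (both -0.48).

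The 2 clones of *exu* did not follow each other. Their ratios correlated at -0.46 over the 8 arrays, where the 216 genes with exactly 2 clones had a median correlation of 0.04 (middle range from the lower to the upper quartile, -0.30 to 0.47). These coefficients share arrays and dye and are a description only. The *exu* clones lay within 0.15 of each other on 4 of 8 arrays and farthest apart on those of pair 3. There the first clone was lower than the second by 1.12 (normal label) and 0.995 (reversed label), both differences of log2 ratios. The mean absolute gap between the clones was 0.41, against a median of 0.35 for the 216 genes. No single value can thus be given for *exu* in pair 3.

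Averaging the arrays of a pair so that the dye cancels leaves the pool difference, and the values for the 3 genes were mixed in sign. The pool differences of the first *exu* clone were 0.18, 0.13, -0.58 and 0.20 in pairs 1 to 4. Those of the second were 0.14, 0.09, 0.48 and 0.29, above 0 in 4 of 4 pairs, as 14.5% of all clones kept one sign in all pairs. The clones of *exu* agreed in sign in pairs 1, 2 and 4 and were opposed in pair 3. Those of *mael* were -0.14, 0.29, -0.36 and 0.34, and those of *zuc* 0.12, -0.13, -0.55 and 0.16. In whole-fly RNA, a smaller share of ovary and less of a transcript per cell cannot be told apart.

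In limma, with the spread left after 1 dye term and 4 pair terms as the error, none of the 4 clones passed 5% in the F-test over the 4 pairs, where 0% of 8448 clones passed. Adjusted p was 0.256 and 0.401 for the *exu* clones, 0.276 for *mael* and 0.307 for *zuc*. At an unadjusted p under 0.05 the first *exu* clone (0.0171), *mael* (0.0229) and *zuc* (0.0372) were among 1262 clones (14.9%). The residual SD of this fit was 0.067 for *mael*, lower than in all but 4% of clones, against 0.10 for the first *exu* clone, 0.15 for *zuc*, 0.26 for the second *exu* clone and 0.22 for the median clone. With 1 dye term for all pairs, this SD is proportional to the SD of the dye component between pairs and larger (0.067 against 0.048 for *mael*). The low value of *mael* thus says nothing of how near to 0 its ratios were.

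Pair 3, pools 5 and 6, held the pool difference farthest from 0 in each of the 4 clones. For *mael* the margin over pair 4 was small (-0.36 against 0.34), and pair 4 was farther from 0 without the reversed-label array of pair 3, with scaled arrays and with quantile normalization. In the limma test of that pair 3.2% of all clones passed 5% (1.57% above 0 and 1.62% below), and 0 of the 4 clones did. All 4 had an unadjusted p under 0.05 there (0.00278 to 0.0236), as did 23.8% of all clones. The first *exu* clone was at -0.58 (95% interval -0.88 to -0.27, limma adjusted p = 0.0617) and *zuc* at -0.55 (-0.87 to -0.22, adjusted p = 0.0757). *mael* was at -0.36 (-0.66 to -0.07, adjusted p = 0.14). The second *exu* clone was at 0.48 (0.09 to 0.88, adjusted p = 0.141). The median absolute difference over all clones was 0.21 in pair 3 and 0.12 in each of the other pairs, so that values spread more widely there for clones in general.

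With the reversed-label array of pair 3 left out, the pair 3 values were -0.66 and 0.63 for the *exu* clones, -0.31 for *mael* and -0.74 for *zuc*, and again none passed (limma adjusted p from 0.123 to 0.419). With clones of discordant spots left out, which removed the first *exu* clone, *zuc* passed at -0.55 (limma adjusted p = 0.0487). It was then among 558 clones that passed in pair 3, of 6911 kept. With scaled arrays and with quantile normalization *zuc* was at -0.40 and -0.39 (limma adjusted p = 0.277 and 0.285). The first *exu* clone was then at -0.54 and -0.65 (limma adjusted p = 0.23 and 0.174), and 0 of all clones passed in pair 3. Without any of these changes, 0% of clones passed in pairs 1, 2 and 4, the 4 clones included. At an unadjusted p under 0.05 in limma there were 0 of the 4 clones in pair 1 (6.5% of all clones), 0 in pair 2 (7.4%) and *mael* in pair 4 (0.0299, with 5.36% of all clones). The differences lay there between -0.14 and 0.34, that is at most 1.26-fold.

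**Figure D2:**
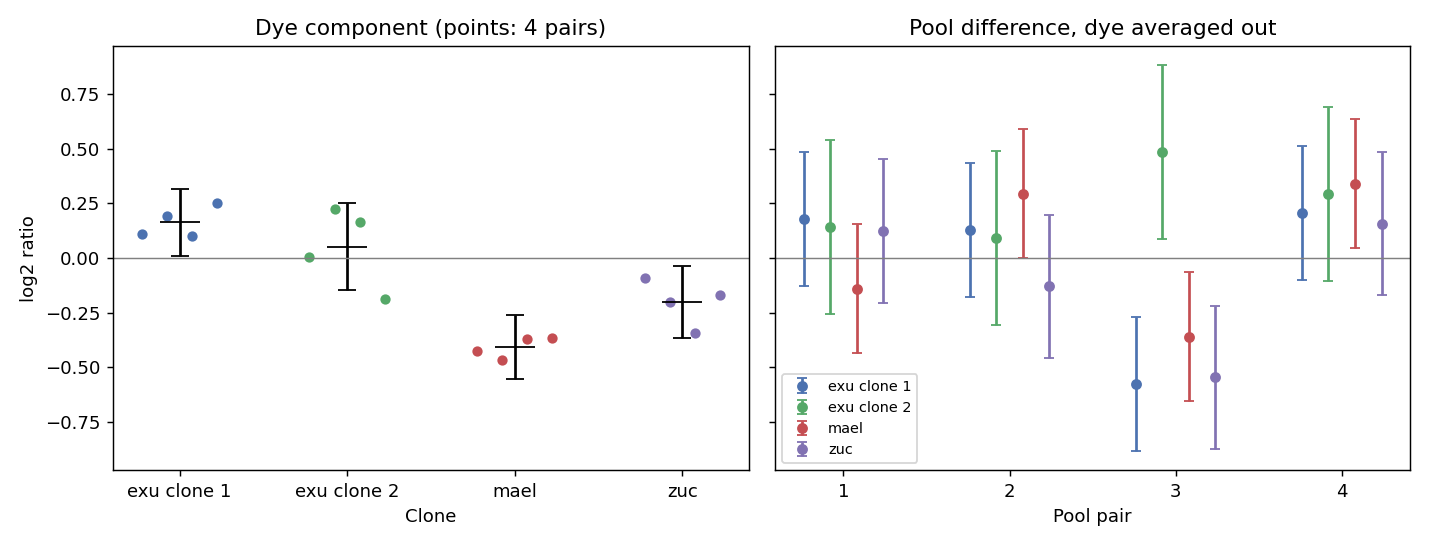
Left, the dye component of each clone in the 4 pairs (points) with its mean and 95% interval from limma (black); right, the pool difference of each clone in each pair with its 95% interval, all in log2 units. The 4 points of *mael* lie between -0.47 and -0.37, and in pair 3 the clones of *exu* lie on opposite sides of 0.

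Parity of the pool number carries no treatment, so the mean of the 4 pool differences, called the even-odd component, has an expected value of 0. It was -0.02 ± 0.37 (mean ± SD, n = 4 pairs) for the first *exu* clone and 0.25 ± 0.18 for the second. It was 0.03 ± 0.34 for *mael* and -0.10 ± 0.32 for *zuc*. None passed 5% in limma (adjusted p from 0.821 to 0.981), where 0% of all clones passed. The second *exu* clone had an unadjusted p of 0.0326 in limma, and 5.34% of clones had an unadjusted p under 0.05. The 95% intervals reached at most 1.27-fold for the first *exu* clone and for *mael*, 1.32-fold for *zuc* and 1.39-fold for the second *exu* clone. A mean difference of these pools beyond those folds lies outside the intervals. Without pair 3 the first *exu* clone was at 0.17 and *zuc* at 0.05, both with the opposite sign.

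The part of the ratio that stayed with the dye when the pools were exchanged, the dye component, was the one in which a member passed. A positive value means more signal in the dye that carried the numerator pool on normal-label arrays. *mael* stood at -0.43, -0.47, -0.37 and -0.37 in pairs 1 to 4, lower than 0 in 4 of 4 pairs and within 0.10 of each other. Its mean was -0.41 ± 0.05 (SD, n = 4 pairs), a 1.33-fold lean, with a 95% interval of -0.56 to -0.26 and a limma adjusted p of 0.0189. In that direction 4.31% of clones passed (364 clones), 4.25% in the other, and 8.56% in all. The size was not unusual among them, since 139 of the 364 lay further from 0.

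*zuc* leaned the same way without passing, at -0.09, -0.20, -0.34 and -0.17 (mean -0.20 ± 0.11, limma adjusted p = 0.121). The first *exu* clone was at 0.11, 0.19, 0.10 and 0.25 (0.16 ± 0.07, adjusted p = 0.17). The second was at 0.00, 0.22, 0.16 and -0.19 (0.05 ± 0.18, limma adjusted p = 0.751). The first *exu* clone, *mael* and *zuc* kept one sign in 4 of 4 pairs, as did 34.5% of all clones. The same 3 clones had an unadjusted p under 0.05 in limma (0.000276 to 0.0407), as did 26.5% of all clones.

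The call of *mael* was not stable to the set of pairs. Without pair 1, 2 or 3 its limma adjusted p was 0.0967, 0.0857 and 0.0537, and without pair 4 it was 0.0458, with means from -0.42 to -0.39. Calls fell over all clones too, from 723 with all pairs to 3, 4, 21 and 359 without pairs 1 to 4. Without the reversed-label array of pair 3 the mean of *mael* was -0.48 (limma adjusted p = 0.0447). Under the other reading of the direction, in which reversed-label ratios are not turned, the dye component of *mael* was 0.03 (adjusted p = 0.966) and the call moved to the even-odd component.

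Among the 3 genes, with the *exu* clones averaged, the dye components differed in the same order in every pair. The order rests on that averaging, since in pair 4 the second *exu* clone (-0.19) was below *zuc* (-0.17). *exu* exceeded *mael* by 0.51 ± 0.12 and *zuc* by 0.31 ± 0.16, and *mael* was below *zuc* by a mean of -0.21 ± 0.13 (SD, n = 4 pairs, each in 4 of 4 pairs). The exact sign-flip permutation test, two-sided, gave p = 0.125 for each of the 3 comparisons, and adjusted p = 0.125. That is the smallest p that 4 pairs allow, so these differences could not pass 5%. Values across the 8 arrays correlated at 0.73 for *mael* and *zuc*, which share the dye and the arrays. Other combinations of the 4 clones lay between -0.56 (*zuc* and the second *exu* clone) and 0.42 (*zuc* and the first). These coefficients were not tested.

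Other genes of the same processes were read from lists of which the members are part. Of 47 genes of the piRNA pathway, 8 had a clone. *mael* was the 1 clone of 9 that passed in the dye component, where 8.56% of all clones passed. The list median was -0.06, that of the 7 clones other than *mael* and *zuc* 0.01, and that of all 8448 clones 0.00. *Hen1*, which methylates the 3′ ends of piRNAs, stood at -0.12 ± 0.13 (limma adjusted p = 0.351). *Gasz*, which encodes a mitochondrial surface protein of piRNA production, stood at -0.06 ± 0.06 (adjusted p = 0.597). *tapas*, a Tudor domain gene, stood at 0.05 ± 0.08 (limma adjusted p = 0.685). The 2 clones of *Cdk12*, a kinase gene that acts on transcription, stood at -0.10 ± 0.14 and 0.07 ± 0.09 (limma adjusted p = 0.421 and 0.578). The clones of this list were thus on both sides of 0.

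Of 52 genes of maternal messenger RNA localization and translation, 12 had a clone, 20 clones in all. In the dye component 1 clone passed above 0 and 3 passed below, where 4.25% and 4.31% of all clones did. The other 16 did not, and the list median was -0.04, or -0.06 without the *exu* clones. Below 0 were *yps*, an RNA-binding protein gene of the complexes that hold *exu* protein (-0.37 ± 0.04, limma adjusted p = 0.0204), 1 of 3 clones of the RNA-binding protein gene *Imp* (-0.46 ± 0.13) and *Fmr1*, a translational regulator (-0.38 ± 0.20, adjusted p = 0.0438). Above 0 was 1 of 5 clones of the actin nucleator gene *capu* (0.33 ± 0.10). *exu* itself was among the 16. The *Imp* clone was also the 1 clone of 20 that passed in pair 3, at -0.87, where 3.2% of all clones passed (1.62% below 0).

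Of 64 genes of oogenesis and the egg, 9 had a clone, and 1 of 12 clones passed in the dye component, where 8.56% of all clones did. It was 1 of 4 clones of *chb*, a microtubule-binding protein gene, at -0.56 ± 0.13 (limma adjusted p = 0.0184). No clone of the 3 lists passed in the even-odd test or the F-test, where 0% of all clones passed. In the F-test, 2 of 9, 3 of 20 and 1 of 12 clones had an unadjusted p under 0.05 (limma), against 14.9% of all clones. These counts include the members: the 2 piRNA clones were *mael* and *zuc* themselves, and the first *exu* clone was among the 3. *mei-9*, a DNA repair gene of meiosis, had the smallest of the last list (0.022), from a pool difference of 2.45 in pair 4 against -0.18 to 0.22 in the others. Its dye component varied more between pairs (-0.55 ± 0.79) than that of any other clone of the 3 lists.

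Markers of tissues other than the germline were read in the same way, and their part in the values of the 3 genes was not tested. In pair 3 the first *exu* clone, *mael* and *zuc* were below 0 and the second *exu* clone was above 0 (0.48). There the 4 nervous system clones had a median pool difference of -0.42, the 5 muscle clones -0.31 and the 3 male reproductive tract clones -0.43. The pools were females, so the male clones cannot stand for a share of that tissue. What their ratios reflect was not tested. The muscle clones ranged from -1.39 to 0.63 and the male clones from -1.36 to 0.40, with only *Tm2* and *betaTub85D* above 0. Nervous system clones lay between -0.57 and -0.15. The 2 yolk and fat body clones, *apolpp* and *Fbp2*, were at 0.00 and 0.37. The median was 0.00 over all clones. The 9 piRNA clones had a median of 0.11 and the 20 maternal clones 0.09 in that pair, members included, both above 0. In that pair 2 of 5 muscle clones and 1 of 3 male clones passed, all below 0, and 0 of 4 nervous system and 0 of 2 yolk clones, where 3.2% of all clones passed. In the dye component 3 of 5 muscle clones passed, 1 above 0 and 2 below, and 2 of 4 nervous system clones, both below 0, against 8.56% of all clones. In the yolk and male lists 0 of 2 and 0 of 3 passed. None of the 12 eggshell genes had a clone named here.

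**Figure D3:**
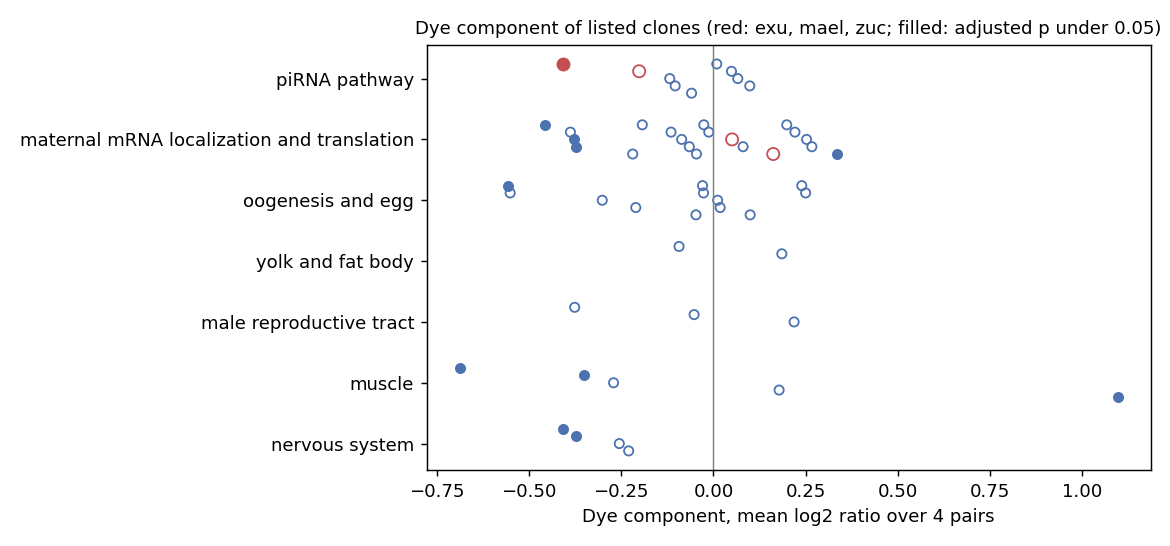
Dye component (horizontal axis, mean log2 ratio over 4 pairs) of every clone of each list; red circles are *exu*, *mael* and *zuc*, and filled circles passed 5% in limma. *mael* is the only filled circle of the piRNA list, and the *exu* and *zuc* circles are open.

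The clones most like each member were found by Pearson's correlation over the 8 arrays among the clones of other genes with a single symbol (2831 for each *exu* clone, 2832 for *mael* and *zuc*). For *mael* these were *CG32267* (r = 0.997), *CG7408* (0.992) and *Rhau* (0.991), and 146 clones lay above 0.9. All 3 passed in the dye component, at -0.68, -0.45 and -0.34 (limma adjusted p = 0.0101, 0.0186 and 0.0242). For *zuc* they were *CG5888* (0.969), *CG10651* (0.967) and *CG10307* (0.957), none of which passed in the dye component, with 29 clones above 0.9. For the first *exu* clone they were *CG9016* (0.927), *PAN3* (0.926) and *CG9436* (0.914), with 5 above 0.9. For the second they were *Las* (0.962), *CG14297* (0.932) and *brwl* (0.928), with 8. The 2 *exu* clones shared none of these genes. The coefficients come from 8 arrays of 4 pairs, include the dye, and were picked as the highest of all compared, so they describe the arrays only.

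**Figure D4:**
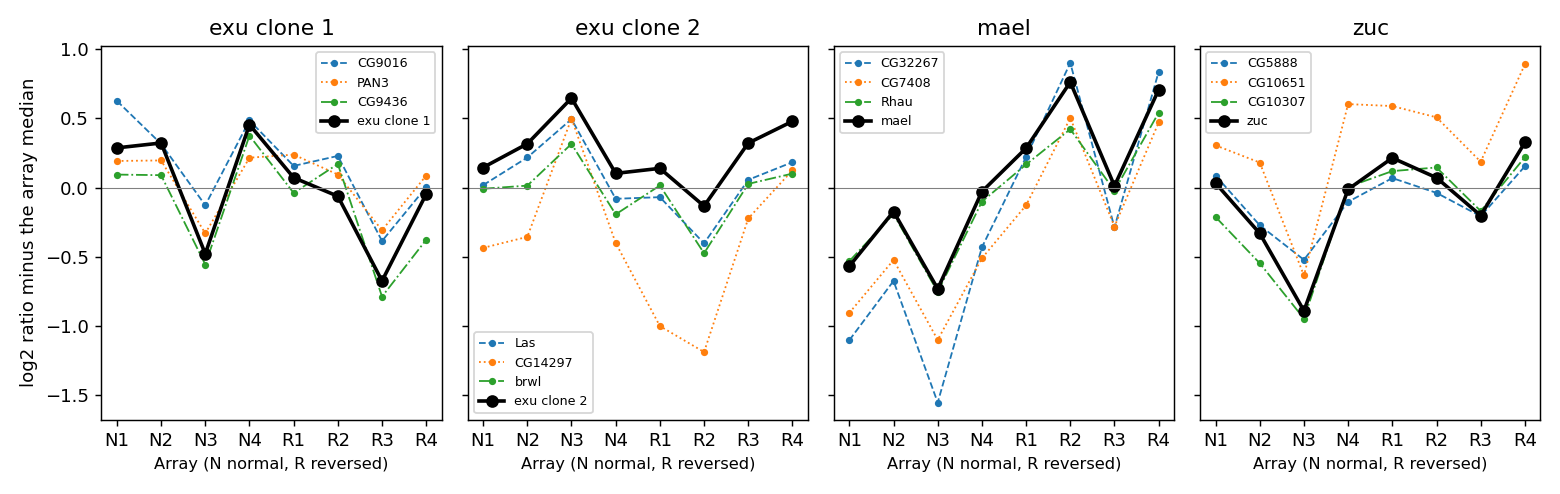
Log2 ratio minus the array median (vertical axis) on the normal-label (N) and reversed-label (R) arrays of pairs 1 to 4 for each clone (black) and the 3 clones most like it. The *mael* set rises from the N to the R arrays, and the sets of the 2 *exu* clones move in opposite directions on N3.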

How the data were processed

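The values are the log2 ratios the authors deposited, 1 for each of 16896 spots on each of 8 arrays; base 2 was inferred from their size (the largest, 17.5). Total RNA (80 µg a labelling) was labelled directly with Cy3 or Cy5, per the labels' protocols. For background correction, normalization within arrays and the numerator channel, the method is not given in the sources used here. Each array's median was subtracted and spots of a clone averaged. All 2833 clones with a single symbol were found in the RefSeq gene table of GCF_000001215.4, used for names only.

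Between the label groups, arrays that shared no pool had a median correlation of -0.157, below 0, so reversed-label values were multiplied by -1 for the dye component. Tests ran in limma 3.58.1 (R 4.3.3), at 5% after Benjamini-Hochberg adjustment across the 8448 clones. The pair was the replicate, since both arrays of a pair carry the same 2 pools. The within-pair correlations of residuals were -0.53 to -0.11. They were taken in dye orientation with only each clone's mean removed. A pool difference then has opposite signs on the arrays of a pair, which makes the correlation negative. The number of arrays limits precision. The tests were checked on simulated data with noise independent between arrays. That check held no within-pair correlation and no wider spread in pair 3, so it does not cover those features. Genes named were all clones of the 3 genes, list clones that passed or had the smallest F-test p, and the 3 clones most like each member; the remaining list and tissue genes were picked with their values known. The members and lists were chosen with earlier results of these data known. Alternatives tried were centring, scaling, quantile normalization, single spots, direction, pairs and arrays left out, the replicate block, robust eBayes and a filter on discordant spots.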

Additional observations from a re-analysis of the deposited data

Results flagged for a closer look

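The pool difference of the first *exu* clone in pair 3 (-0.58) lay far from those of the other 3 pairs (0.13 to 0.20), by the gap to its nearest neighbour over the whole range. It was the 1 such case among 16 groups of 4 values examined for the 4 clones, where chance gives about 1 in 20. The second *exu* clone stood at 0.48 in that pair, and the 2 spots of the first clone were at -0.15 and -1.19 on its reversed-label array and both at -0.48 on its normal-label array.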

How the results depend on the processing

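The number of arrays and pairs, and ratios without signal levels, limit these results. Of the 4 clones only *mael* was called, and it passed in 9 of 16 alternatives. Its dye component lost the call with single spots (-0.42 and -0.40, limma adjusted p = 0.0521 and 0.0556) and with 8 arrays and no replicate block (-0.41, adjusted p = 0.0788). With 8 arrays and the pair as a replicate block it held (adjusted p = 0.026), and the block changed no other call of the members. With 1 pair, or the reversed-label array of pair 3, left out, its dye component ranged from -0.48 to -0.39. The same omissions gave -0.0076 to 0.13 for the second *exu* clone, and in the even-odd component -0.089 to 0.17 for the first *exu* clone, -0.069 to 0.16 for *mael* and -0.18 to 0.050 for *zuc*. If reversed-label ratios are not turned (the other reading), the dye and even-odd values exchange, at -0.016 and 0.16 for the first *exu* clone and 0.033 and -0.41 for *mael*, and pair 3 of the first *exu* clone is 0.10, pair 1 of *zuc* -0.091, pair 2 of *mael* -0.47, and pair 4 of the second *exu* clone, *mael* and *zuc* -0.19, -0.37 and -0.17, none of the pair values passing. With a turned sign for pair 3's reversed-label array, the first *exu* clone had a dye component of -0.0065, an even-odd component of 0.15 and a pair 3 value of 0.10, and the pair 3 values of the second *exu* clone and *zuc* were 0.16 and -0.34. With scaled arrays and quantile normalization, *mael* in pair 3 was at -0.22 in each, against 0.34 and 0.39 in pair 4. The first *exu* clone's even-odd component was 0.0089 with scaled arrays and 0.14 on the odd spot, where that of *mael* was -0.0071. The pair 4 value of the first *exu* clone was -0.084 on the even spot.

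Over all clones, dye calls (723) numbered 286 with scaled arrays, 258 with quantile normalization, 95 with single spots, 0 under the other reading, 481 with pair 3's reversed-label array turned and 76 with no replicate block, and 3 to 359 with a pair or that array left out (3, 4, 21 and 359 without pairs 1 to 4, 318 without the array). Even-odd calls numbered 723 under the other reading. F-test calls (0) numbered 0 to 8 with a pair or that array left out and 3 without discordant clones. Pair 3 calls (270) numbered 0 with scaling, quantile normalization, single spots, the other reading or that array turned, 2 to 157 with another pair or that array left out and 558 without discordant clones, where pair 2 had 7. Pair 1 had 1 with quantile normalization. The cause of these changes was not tested.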
